A study of Mus musculus with 12 samples.

Results

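The chemokine system of the embryonic mouse lung was followed gene by gene in lungs with and without a conditional knockout of Tgfbr2, a gene for the ligand-binding receptor of transforming growth factor beta (TGF-beta). Genes were taken by symbol, as the ligands named Ccl, Cxcl, Cx3cl or Xcl, the receptors named Ccr, Cxcr or Xcr, and the atypical receptors named Ackr. The rule selected 63 of the 47069 genes in the count table, under 59 symbols. They were 42 ligand genes (27 CC, 13 CXC, 1 CX3C and 1 C), 17 receptors and 4 atypical receptors, and all 63 were found by identifier in GENCODE M21, the annotation of the GRCm38 assembly used here. They lie mainly in clusters, with 14 on chromosome 11, 12 on chromosome 9 and 11 on chromosome 5. A pair of Ccl21a copies was left out.

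RNA was sequenced from whole lungs of C57BL/6 mice at embryonic day 15.5 (E15.5), 3 per group. The wild-type (WT) lungs carry the genotype label wild type, and whether they also held a floxed allele or a transgene is not given by the labels. The conditional knockout (CKO) lungs carried floxed Tgfbr2 with Tbx4-rtTA and Teto-Cre, spelled Tgfbr2lox/flox/Tbx4-rtTA/Teto-Cre for replicates 1 and 2 and Tgfbr2flox/flox/Tbx4-rtTA/Teto-Cre for replicate 3. Tbx4 is a gene of the lung mesenchyme, so the rtTA activator is driven there, and Cre is made only with doxycycline. Per the labels' protocols, both groups received doxycycline between E6.5 and E15.5, at 1 mg/ml in water and with food as well. Each lung was sequenced in 2 runs, which were summed. Whether lungs of a group share a litter is not stated, so the p-values cover only how much these lungs vary.

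Chemokines are small secreted proteins that bind G protein-coupled receptors and guide the movement of cells along gradients held on heparan sulfate. The CC and CXC ligands are grouped by the spacing of their first cysteines, and most receptors bind several ligands. Atypical receptors bind chemokines without activating G proteins and mainly remove or redistribute them. In the developing lung, Cxcl12 from mesenchymal and vascular cells and its receptor Cxcr4 take part in vessel formation, while the CCR receptors are known mostly from macrophages and other leukocytes.

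Gene counts summed to 31983717 to 51572845 per lung. Tgfbr2 itself was at 199.7, 202.7 and 230.0 CPM across the WT lungs, against 213.5, 221.4 and 239.1 CPM across the CKO lungs. CPM are counts scaled to an equal effective library size of 1000000, and these groups overlapped (log2 fold change 0.09, adjusted p = 0.453). The counts cover the whole gene in all cells of the lung and cannot show the loss of a floxed part in the mesenchyme, so they do not check the genotype labels. Replicate 1 of each group had 61807 and 100817 Xist counts and 0 Ddx3y counts, and the other 4 lungs had 22 to 41 Xist and 3145 to 4387 Ddx3y counts, so both groups hold 1 female and 2 male lungs. Smooth muscle markers summed to 1051 to 1122 CPM in the WT lungs and to 746, 416 and 406 CPM in CKO lungs 1 to 3. CKO replicate 1 thus lay between WT and the other CKO lungs, and its position is given with each result below. It is also the only female CKO lung, so sex cannot be told apart from other differences of that lung. Fits without it hold no female CKO lung. The values cannot tell fewer cells of a type from less RNA per cell.

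For 5 genes on which the results turn, the 250 bases upstream of the transcription start are printed from RefSeq (GRCm38.p6), 5′ to 3′ on the strand of the gene. Cxcl12, Cxcr4 and Ackr3 are a ligand and its receptors, and Cxcl14 and Cxcl15 had the largest fold changes in each direction among tested members. Capitals mark matches, on either strand, to any of 4 searched motifs. The TATA box was searched as TATAAA, and NF-kB as a consensus of 10 letters with 2 free positions. The letters CAGAC, known as the core of a site bound by SMAD proteins, which carry TGF-beta signals, were searched as the SMAD motif. The GC box, known from sites of SP factors, was searched as GGGCGG.
Cxcl12, chr6:117168285-117168534, plus strand: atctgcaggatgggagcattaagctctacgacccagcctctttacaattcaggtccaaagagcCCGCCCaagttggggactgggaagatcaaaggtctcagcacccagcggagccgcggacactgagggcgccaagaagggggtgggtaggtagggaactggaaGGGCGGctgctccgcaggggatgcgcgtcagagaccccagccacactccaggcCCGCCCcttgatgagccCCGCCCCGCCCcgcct
Cxcr4, chr1:128592300-128592549, minus strand: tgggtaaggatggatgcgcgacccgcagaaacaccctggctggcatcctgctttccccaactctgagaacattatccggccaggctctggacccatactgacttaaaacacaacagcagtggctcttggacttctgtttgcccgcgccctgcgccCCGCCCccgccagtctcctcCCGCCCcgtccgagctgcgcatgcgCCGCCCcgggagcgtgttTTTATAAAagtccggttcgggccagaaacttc
Ackr3, chr1:90203730-90203979, plus strand: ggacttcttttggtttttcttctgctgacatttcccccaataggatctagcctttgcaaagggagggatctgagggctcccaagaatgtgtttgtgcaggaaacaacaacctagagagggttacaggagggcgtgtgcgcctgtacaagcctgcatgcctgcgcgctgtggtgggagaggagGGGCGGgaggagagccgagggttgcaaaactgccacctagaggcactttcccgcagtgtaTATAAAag
Cxcl14, chr13:56296552-56296801, minus strand: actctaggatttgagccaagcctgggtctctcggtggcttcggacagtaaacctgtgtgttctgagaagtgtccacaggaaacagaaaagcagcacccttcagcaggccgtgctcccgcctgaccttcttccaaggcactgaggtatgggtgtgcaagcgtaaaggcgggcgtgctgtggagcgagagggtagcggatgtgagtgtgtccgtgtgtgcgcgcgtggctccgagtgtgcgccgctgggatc
Cxcl15, chr5:90794284-90794533, plus strand: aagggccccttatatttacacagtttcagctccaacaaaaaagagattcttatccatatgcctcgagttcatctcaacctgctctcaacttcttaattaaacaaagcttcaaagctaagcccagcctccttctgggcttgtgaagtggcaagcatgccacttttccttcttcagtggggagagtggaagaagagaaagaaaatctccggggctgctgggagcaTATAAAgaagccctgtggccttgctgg

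The Cxcl12 window was 64.4% G and C with 5 GC box matches, 2 of which overlap near the start, and no TATA match. The Cxcr4 window was 61.2% G and C, with 3 GC box matches and a TATA match on each strand that overlap about 30 bases before the start. Ackr3 (54% G and C) had 1 GC box match and 1 TATA match, which begins only 8 bases before the start. Cxcl15 (46.4%) had 1 TATA match that begins 27 bases before the start. Cxcl14 (59.6%) had none of the 4 motifs, and none of the 5 windows held the NF-kB or SMAD letters. The median over all 32851 RefSeq promoter windows was 52.4% G and C. RefSeq windows were found for 43 of the 59 symbols, as 50 windows since some genes have several starts. TATAAA was in 14 of these 50 windows (28%, against 12.4% of all windows), the NF-kB motif in 6 (12%, against 1.41%), CAGAC in 21 (42%, against 42.2%) and GGGCGG in 8 (16%, against 32.7%). These shares are descriptions, several windows are copies of related genes, and a match is not a binding site.

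Of the 63 members, 30 had enough counts to test. With edgeR's quasi-likelihood test and an adjusted p under 0.05, 4 of the 30 were higher in CKO, among them Ackr3, Cxcl14 and Ccl2, 2 were lower (Cxcl12 and Ccl7) and 24 did not pass. The 6 called members are 20% of those tested, beside 8.71% of all 17843 genes tested, of which 5.64% were higher and 3.08% lower. WT and CKO lungs did not overlap for 10 of the 30 members (33.3%), against a background of 29.9%, which is close to it. Of these, 7 were higher and 3 lower, beside 15.5% and 14.4% of all genes. By class, 2 of 11 tested CC ligands, 2 of 6 CXC ligands, 1 of 4 atypical receptors and 0 of 1 CX3C ligand were called. The single CX3C gene, Cx3cl1, had an unadjusted p of 0.709. The members' median log2 fold change was 0.13, beside -0.0046 for all genes, and 19 of 30 were above 0, beside 48.9% of all genes.

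**Figure D1:**
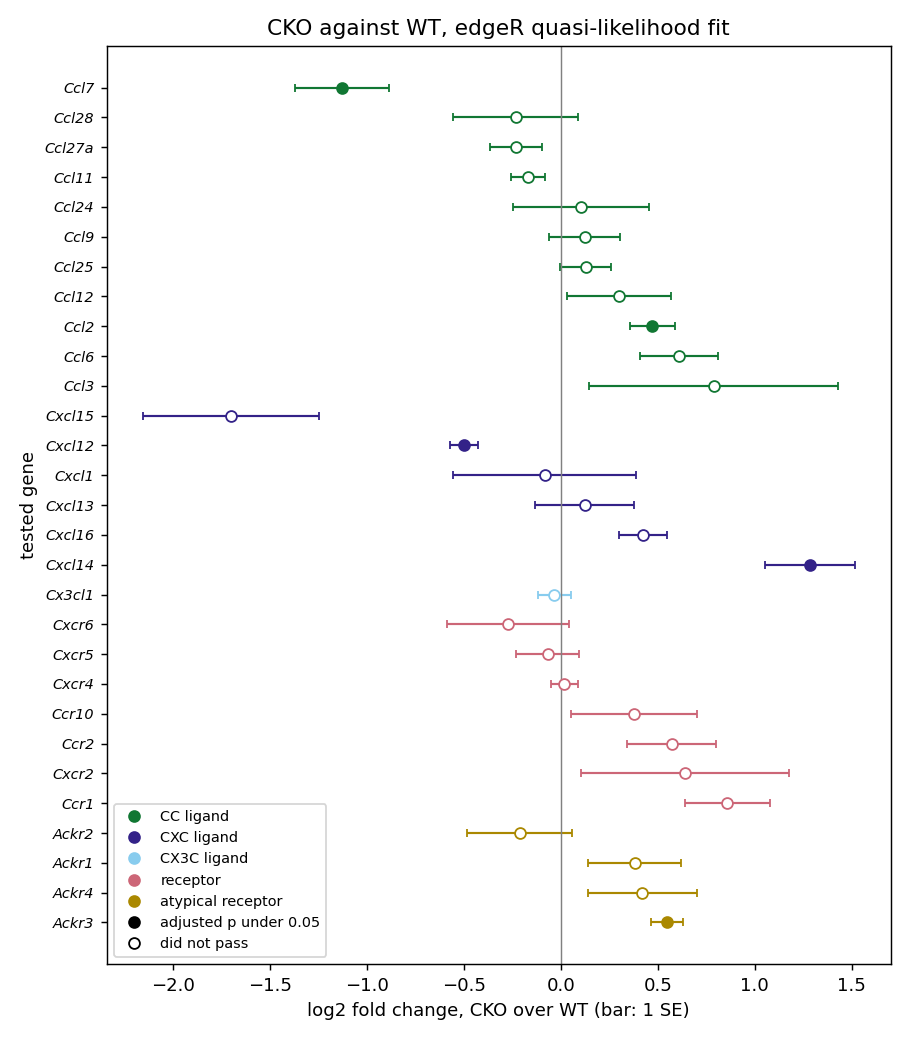
Log2 fold change of CKO over WT (x axis, bars of 1 SE from the edgeR quasi-likelihood fit over 3 lungs per group) for tested genes (y axis), coloured by class, with filled points for adjusted p under 0.05. Filled points are Ccl7 and Cxcl12 below 0 and Ccl2, Cxcl14 and Ackr3 above 0, while Cxcl15 has the lowest estimate, -1.70, with an open point.

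A few genes held most of the chemokine RNA. Compared per length, as CPM per kilobase of merged exons, the highest levels were those of Ccl11 (mean 32.4 over all lungs), Cxcr4 (25.5), Cxcl12 (16.9), Ackr3 (11.4 in WT and 16.6 in CKO), Ccl2 (7.42) and Cxcl14 (7.12). This order depends on the merged exon lengths. In CPM, Cxcl12 was the highest member, with means of 162 in WT and 114 in CKO, beside 37.2 and 33.0 for Ccl11. Ccl11, Cxcl12, Cxcr4 and Ackr3 together made up 74.9% of the members' total CPM in WT and 70.4% in CKO. The total over all members was 377 ± 19.7 CPM in WT and 354 ± 20.1 CPM in CKO (SD, n = 3), with groups that overlap. CXC ligands summed to 197 ± 18.7 CPM in WT and 147 ± 5.09 CPM in CKO, and most of that sum is Cxcl12. CC ligands gave 64.3 ± 3.47 CPM in WT and 62.7 ± 4.47 CPM in CKO. Atypical receptors gave 40.1 ± 2.24 CPM in WT and 57.9 ± 5.42 CPM in CKO, nearly all of it Ackr3.

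The ligand Cxcl12 fell while its scavenger Ackr3 rose, and no change was detected in Cxcr4, the signalling receptor. Cxcl12 was at 153, 151 and 180 CPM across the WT lungs, against 110, 114 and 118 CPM across the CKO lungs. Every CKO lung was below every WT lung, by a mean of 1.42-fold (log2 fold change -0.50 ± 0.071 SE, adjusted p = 0.00877). CKO replicate 1 was the lowest of the CKO lungs, with a shift from the WT mean that was 113% of the mean shift of the other 2. The call was kept when each other lung was left out in turn, and without CKO replicate 2 the adjusted p was 0.0512 with a log2 fold change of -0.49.

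Ackr3, an atypical receptor of Cxcl12 that takes the ligand up, was at 38.6, 35.7 and 39.7 CPM across the WT lungs, against 49.4, 60.0 and 57.4 CPM across the CKO lungs. The groups did not overlap and the mean difference was 1.46-fold (log2 fold change 0.55 ± 0.083 SE, adjusted p = 0.0107). The shift of CKO replicate 1 was 55.0% of that of the other CKO lungs. The call was lost without WT replicate 2 (adjusted p = 0.0632) and without CKO replicate 2 (adjusted p = 0.0544). Cxcr4 was at 43.6, 45.8 and 48.1 CPM across the WT lungs, against 45.7, 49.8 and 43.7 CPM across the CKO lungs, fully interleaved. Its log2 fold change was 0.02, with a 95% interval of -0.14 to 0.18 and adjusted p = 0.909.

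Within each lung, the ratio of Cxcl12 to Cxcr4 per kilobase was 0.779 ± 0.0482 in WT and 0.546 ± 0.0477 in CKO, and that of Ackr3 to Cxcr4 was 0.448 ± 0.0288 in WT and 0.648 ± 0.0629 in CKO (SD, n = 3). The ratio of Cxcl12 to Ackr3 was 1.63, 1.74 and 1.86 across the WT lungs, against 0.915, 0.778 and 0.844 across the CKO lungs. Whether these ratios are above or below 1 depends on the merged exon lengths, 8176 bp for Cxcl12, 3348 bp for Ackr3 and 1808 bp for Cxcr4. In CPM, Cxcl12 was above both Ackr3 and Cxcr4 in every lung. Across the CKO lungs it was at 110, 114 and 118 CPM, against 49.4, 60.0 and 57.4 CPM for Ackr3 and 45.7, 49.8 and 43.7 CPM for Cxcr4. No pair of groups overlapped in these ratios. The ratios given here and below were chosen after their values were seen and carry no test.

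Endothelial cells carry much of the Ackr3 and Cxcl12 of many tissues, and blood endothelium markers were higher in CKO. Of the 8 markers, 5 were called higher (Pecam1, Kdr, Tek, Emcn and Esam), and the summed level was 1427, 1436 and 1554 CPM in WT and 1715, 1918 and 1928 CPM in CKO. Per 1000 CPM of these markers, Ackr3 was 25.8 ± 1.14 CPM in WT and 29.9 ± 1.25 CPM in CKO, and Cxcl12 was 110 ± 5.61 CPM in WT and 61.7 ± 2.51 CPM in CKO, without overlap in either. Lung mesenchyme markers had 1 of 6 called higher and 2 lower. Their sum was 4880, 4491 and 4916 CPM across the WT lungs, against 5347, 5355 and 6130 CPM across the CKO lungs. Smooth muscle markers, with 2 of 5 called lower, summed to 1073, 1122 and 1051 CPM across the WT lungs, against 746, 416 and 406 CPM across the CKO lungs. Pericyte markers had 0 of 4 called. The part of these cell types in the Cxcl12 and Ackr3 differences was not tested.

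**Figure D2:**
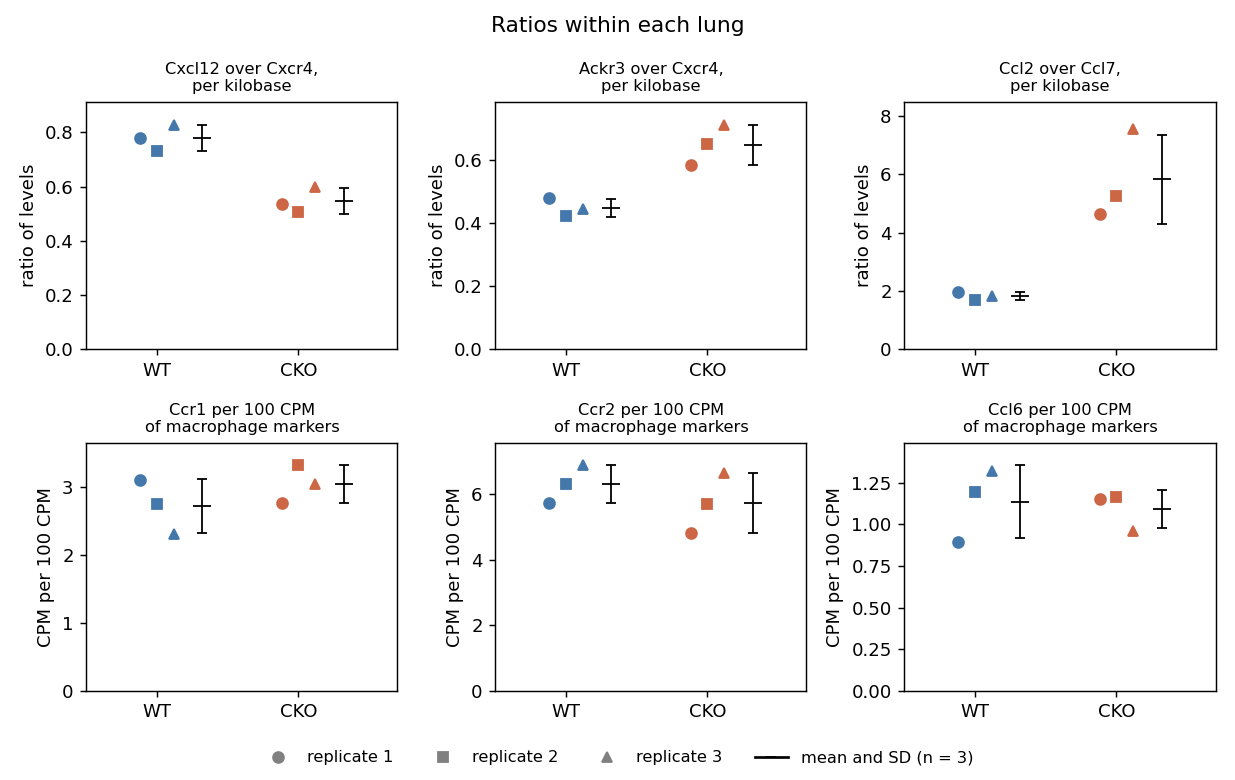
Ratios computed within each lung, as ratios of CPM per kilobase (upper panels, y axis) or as CPM per 100 CPM of summed macrophage markers (lower panels, y axis), for WT and CKO (x axis), with 1 symbol per lung and the mean and SD of 3 lungs beside. The 3 upper ratios do not overlap between groups, while Ccr1, Ccr2 and Ccl6 per macrophage marker overlap.

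Cxcl14, a CXC ligand made by epithelial and stromal cells whose signalling receptor is not settled, rose. It was at 8.74, 7.79 and 6.22 CPM across the WT lungs, against 12.3, 20.4 and 22.6 CPM across the CKO lungs. The groups did not overlap, and the mean difference was 2.44-fold (log2 fold change 1.29 ± 0.231 SE, adjusted p = 0.0184). CKO replicate 1 moved 33.5% as far as the other 2 CKO lungs. Without WT replicates 1 or 2 or CKO replicates 2 or 3 the adjusted p was 0.0555, 0.0836, 0.0833 and 0.0561. The log2 fold change stayed between 1.12 and 1.52 with any 1 lung left out. Per kilobase, the ratio of Cxcl14 to Cxcl12 was 0.213 ± 0.0524 in WT and 0.719 ± 0.194 in CKO.

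Among the CC ligands, neighbours in 1 gene cluster moved in opposite directions. Ccl2, Ccl7, Ccl11 and Ccl12 lie within 67.8 kb at chr11:82035571-82103400, with 8258 bases between the end of Ccl2 and the start of Ccl7. All of them attract monocytes or eosinophils, and Ccl2 and Ccl7 share the receptor Ccr2. Ccl2 was at 7.23, 7.46 and 6.53 CPM across the WT lungs, against 9.39, 11.1 and 8.93 CPM across the CKO lungs, without overlap (1.39-fold higher, log2 fold change 0.47 ± 0.116 SE, adjusted p = 0.0461). Ccl7 was at 2.59, 3.08 and 2.49 CPM across the WT lungs, against 1.42, 1.49 and 0.831 CPM across the CKO lungs, without overlap (2.19-fold lower, log2 fold change -1.132 ± 0.242 SE, adjusted p = 0.0308). CKO replicate 1 moved with its group in both, at 78.4% and 83.3% of the shift of the other CKO lungs.

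Both calls sat near the threshold. Ccl2 passed in 1 of 6 fits with a lung left out: the adjusted p was 0.123, 0.134 and 0.0753 without WT replicates 1 to 3, and 0.169 and 0.0827 without CKO replicates 2 and 3. Ccl7 passed in 2 of 6, with adjusted p of 0.0890 and 0.133 without WT replicates 1 and 2, and 0.0858 and 0.0707 without CKO replicates 2 and 3. Neither changed direction in any of these fits.

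Ccl11 (eotaxin, a ligand of Ccr3) was the most abundant member per length, at 40.7, 36.3 and 34.5 CPM across the WT lungs, against 33.4, 35.4 and 30.1 CPM across the CKO lungs. These groups overlapped, with a log2 fold change of -0.17 (95% interval -0.37 to 0.03, adjusted p = 0.264). Ccl12, a monocyte ligand of Ccr2 in mice, was at 0.608 to 1.129 CPM in WT, against 1.07 to 1.32 CPM in CKO (adjusted p = 0.540). The ratio of Ccl2 to Ccl7 per kilobase was 1.96, 1.71 and 1.84 across the WT lungs, against 4.66, 5.27 and 7.56 across the CKO lungs, and that of Ccl11 to Ccl2 was 5.53 ± 0.402 in WT and 3.55 ± 0.199 in CKO. Neither ratio overlapped between groups.

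**Figure D3:**
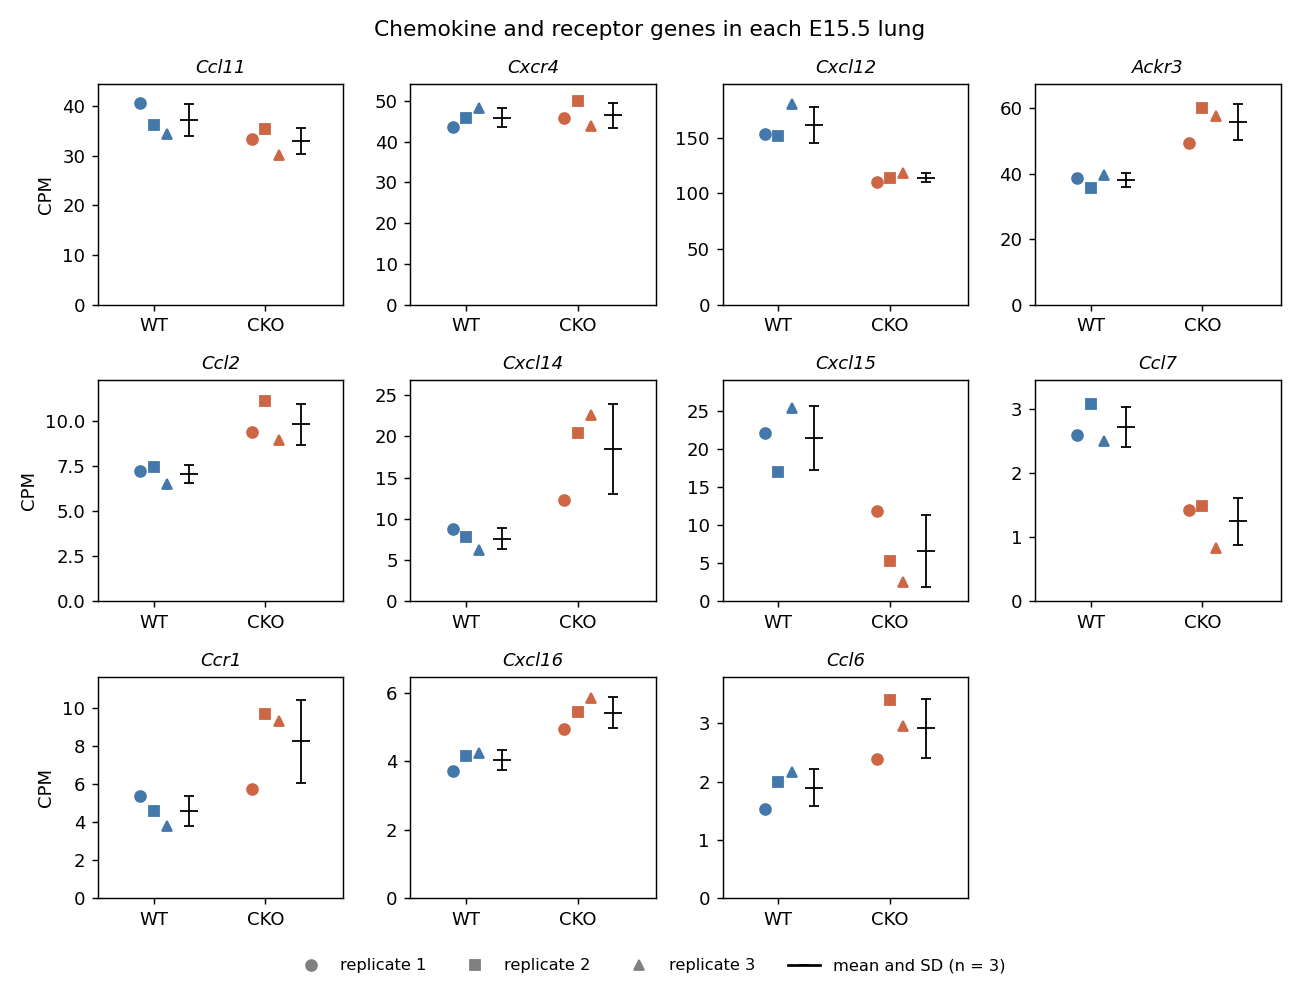
CPM (y axis, from 0, a scale per panel) in each of the 3 WT and 3 CKO lungs (x axis) for members named by the rule, with symbols for replicates and the mean and SD beside. Cxcl12, Ccl7 and Cxcl15 lie lower in every CKO lung, Ackr3, Ccl2, Cxcl14, Ccr1, Cxcl16 and Ccl6 lie higher, and Ccl11 and Cxcr4 overlap.

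Ccr1 and Ccr2, receptors of monocytes and macrophages, had their highest values in CKO replicates 2 and 3, and neither passed the test. Ccr1, a receptor of Ccl3 and Ccl5, was at 5.34, 4.56 and 3.77 CPM across the WT lungs, against 5.73, 9.69 and 9.31 CPM across the CKO lungs. The groups were apart, CKO replicate 1 only just, and the test was not passed (log2 fold change 0.86 ± 0.221 SE, adjusted p = 0.0526). Ccr2, the receptor of Ccl2, Ccl7 and Ccl12, was at 9.82, 10.5 and 11.3 CPM across the WT lungs, against 9.96, 16.6 and 20.4 CPM across the CKO lungs. CKO replicate 1 lay inside the WT range, and the adjusted p was 0.168. Without CKO replicate 1, the adjusted p was 0.00272 for Ccr1 and 0.00225 for Ccr2. Ccr3, an eosinophil receptor, had 12 counts in all and was not tested.

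Macrophage markers were also highest in CKO replicates 2 and 3. Of 10 markers, 6 were called higher (Csf1r, Adgre1, Cx3cr1, C1qa, C1qb and Mertk) and 4 did not pass (Cd68, Mrc1, Tyrobp and Fcgr1). They summed to 172, 166 and 164 CPM across the WT lungs, against 207, 292 and 306 CPM across the CKO lungs, and none was at 0. CKO replicate 1 moved 30.3% as far as the other CKO lungs in this sum, beside 23.7% for Ccr1 and -7.04% for Ccr2. Per 100 CPM of these markers, Ccr1 was 2.72 ± 0.402 CPM in WT and 3.04 ± 0.279 CPM in CKO, and Ccr2 was 6.30 ± 0.586 CPM in WT and 5.72 ± 0.922 CPM in CKO, both overlapping. The called ligand Ccl2 also overlapped on this scale, with 4.23 ± 0.254 CPM in WT and 3.75 ± 0.808 CPM in CKO. Of 6 pan-leukocyte markers 5 were called higher, and of 12 granulocyte, mast cell and lymphocyte markers 5 were tested and 0 called. In that list Ly6g, Elane, Mpo, Cd3e, Il7r and Nkg7 were among those that had too few counts to test. The part of leukocyte number in the receptor and Ccl2 values was not tested.

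Ccl6 and Cxcl16, both ligands that macrophages make, were higher in every CKO lung than in any WT lung but did not pass. Ccl6 was at 1.54, 1.99 and 2.16 CPM across the WT lungs, against 2.39, 3.40 and 2.94 CPM across the CKO lungs (log2 fold change 0.61, adjusted p = 0.105). Per 100 CPM of macrophage markers it overlapped, with 1.14 ± 0.220 CPM in WT, against 1.09 ± 0.114 CPM in CKO. Cxcl16, the ligand of Cxcr6, was at 3.71, 4.15 and 4.26 CPM across the WT lungs, against 4.96, 5.45 and 5.87 CPM across the CKO lungs (log2 fold change 0.42, adjusted p = 0.0782). Exons of Cxcl16 overlap those of Zmynd15 on the other strand over 552 bases, and the latter had 471 counts in all. The log2 fold change of Cxcl16 was 0.11 in the first run alone (adjusted p = 0.780) and 0.54 in the second, where it passed (adjusted p = 0.0376).

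Cxcl15 (lungkine), a CXC ligand of mouse lung epithelium, had the largest difference of all tested members and did not pass. It was at 22.0, 16.9 and 25.3 CPM across the WT lungs, against 11.8, 5.32 and 2.59 CPM across the CKO lungs. Every CKO lung was lower, but the CKO lungs ranged widely, and the log2 fold change of -1.70 ± 0.456 SE had an adjusted p of 0.0592. Without CKO replicate 1 it was -2.43 (adjusted p = 0.00115), and without any other lung it lay between -1.85 and -1.31 with adjusted p above 0.05.

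Summed lung epithelium markers were lower in every CKO lung than in any WT lung, a gap that was not there without Sftpc. Of 6 lung epithelium markers 2 were called lower (Epcam and Sox9) and 0 higher, and they summed to 1790, 1749 and 2333 CPM across the WT lungs, against 1638, 1627 and 1284 CPM across the CKO lungs. Without Sftpc, the surfactant protein C gene (log2 fold change -0.67, adjusted p = 0.125), the other 5 markers summed to 940 to 1097 CPM in WT, against 870 to 958 CPM in CKO, which overlapped. Nkx2-1 was at 287 ± 40.1 CPM in WT, against 322 ± 7.01 CPM in CKO. Per 1000 CPM of the sum of all 6, Cxcl15 was 12.3, 9.66 and 10.8 CPM across the WT lungs, against 7.21, 3.27 and 2.02 CPM across the CKO lungs, without overlap. Conducting airway markers, with 2 of 5 called lower, summed to 96.6, 77.2 and 137 CPM across the WT lungs, against 46.2, 5.48 and 8.33 CPM across the CKO lungs. The part of airway cell number in Cxcl15 was not tested.

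**Figure D4:**
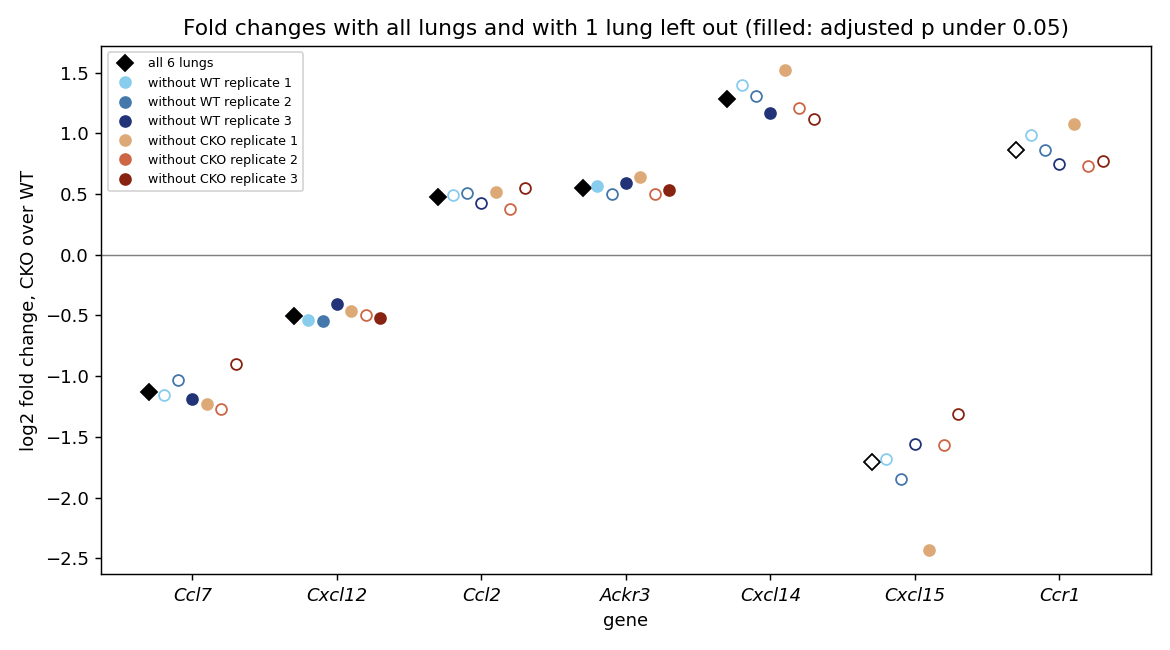
Log2 fold change of CKO over WT (y axis) for called members, Cxcl15 and Ccr1 (x axis), with all 6 lungs (diamonds) and with each lung left out in turn (circles), filled where the adjusted p was under 0.05. Every point keeps its sign, Cxcl12 keeps its call in 5 of 6 and Ackr3 in 4 of 6, and Cxcl15 and Ccr1 are filled only without CKO replicate 1.

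The remaining tested members did not pass, and their groups overlapped. Cx3cl1, the ligand of the microglial and macrophage receptor Cx3cr1, was at 8.96 to 9.72 CPM in WT, against 8.78 to 9.36 CPM in CKO (95% interval of the log2 fold change -0.24 to 0.17). The others were Ccl3, Ccl9, Ccl24, Ccl25, Ccl27a, Ccl28, Cxcl1, Cxcl13, Cxcr2, Cxcr5, Cxcr6, Ccr10, Ackr1, Ackr2 and Ackr4, with log2 fold changes from -0.27 (Cxcr6) to 0.79 (Ccl3) and adjusted p from 0.329 to 0.940. Ackr1, Ackr2 and Ackr4, the atypical receptors beside Ackr3, reached at most 1.44 CPM in any lung. Some exons overlap those of more abundant genes. Ackr1 shares 361 of 1405 bases with Cadm3, Ackr4 479 of 5380 with Acad11 and Ccl25 204 of 7445 with Elavl1. Cxcr5 shares 110 of 3332 bases with Bcl9l, and Ccl27a 8 of 2377 with Il11ra1. Counts are uncertain over those shared bases.

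The other 33 members had too few counts to test. No count in any lung was found for 10 of them (Ccl19, Ccl21b, 3 Ccl21c copies, 2 Ccl27a copies on unplaced scaffolds, Ccl27b, Cxcr1 and Xcl1), which over the 6 lungs allows a level of up to 0.0121 CPM each, from counting error only. Counts of the Ccl21 and Ccl27 copies are uncertain, since near-identical genes share reads. The same may hold for Ccl19, whose merged exon length of 867 bp is also that of a Ccl21c copy. Of the other 23, 16 had under 20 counts in all. The highest totals were those of Ccr9 (53 counts), Cxcr3 (50), Ccr7 (42), Ccr8 (26), Cxcl10 (25), Ccl4 (24) and Cxcl5 (23). Ccr7, the receptor that guides dendritic cells and T cells to lymph nodes, had 10, 13 and 7 counts across the WT lungs, against 2, 6 and 4 across the CKO lungs. The neutrophil ligands Cxcl2 and Cxcl3, the interferon-induced Cxcl9 and Cxcl11 and the T cell ligands Ccl17 and Ccl22 had 1 to 10 counts each.

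Beyond the name rule, 55 genes of the pathway were read from lists of related ligands and receptors, G protein signalling, migration, presentation and inducers. Of the 53 tested, 8 were called higher, 2 lower and 43 did not pass, beside 5.64% of all tested genes higher and 3.08% lower. Their median log2 fold change was 0.07, beside -0.0046 for all genes. Among 9 related ligands and receptors, 4 were called higher. Cx3cr1 (0.79, adjusted p = 0.0303) and the platelet chemokine Ppbp (1.15, 0.0427) were among them. So were Gpr182, a scavenging receptor of endothelium (0.64, 0.0130), and Rarres2, which encodes the attractant chemerin (0.64, 0.0202). The values in brackets here and in the next sentences are log2 fold changes and adjusted p. Of signalling and migration genes, Gnai1 (0.27, 0.0226), the receptor kinase Grk5 (0.44, 0.0212), and the leukocyte genes Rac2 (0.70, 0.0363) and Vav1 (0.80, 0.0421) rose. Cx3cr1 is also in the macrophage list and Ppbp in the platelet list, of whose 6 markers 4 were called higher.

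Of 11 genes that present or trim chemokines, 2 were called lower and 0 higher. Sulf2, which removes sulfate groups from heparan sulfate, was at 85.4, 87.6 and 77.4 CPM across the WT lungs, against 53.2, 19.9 and 22.0 CPM across the CKO lungs (log2 fold change -1.40, adjusted p = 0.0438). Sdc2, a heparan sulfate proteoglycan of the cell surface, was at 181, 180 and 173 CPM across the WT lungs, against 151, 145 and 121 CPM across the CKO lungs (log2 fold change -0.36, adjusted p = 0.0326). Neither overlapped between groups. None of the 10 tested inducers, among them Nfkb1, Rela, Tnf and Hif1a, was called, and the smallest adjusted p in that list was 0.0665, for Nfkb1. The calls in these lists moved with single lungs, to 0 higher and 0 lower when WT lung 1 or 2 or CKO lung 2 was left out, and to 2 higher and 1 lower without CKO replicate 3. They numbered 10 higher and 2 lower without WT replicate 3, and 15 higher and 2 lower without CKO replicate 1.

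The authors' deposited table, which comes from a likelihood ratio fit, lists 33 of the members. In the authors' deposited table, an adjusted p under 0.05 was listed for 9 members, 6 higher and 3 lower, beside 12% of the 19683 genes it lists. The 9 in the authors' deposited table were the 6 called here with Ccr1 (log2 fold change 0.86), Cxcl15 (-1.70) and Ccl6 (0.60).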

How the data were processed

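The submitters' processing notes name cutadapt 1.13, Trimmomatic 0.35, STAR 2.5.2b, HTSeq 0.6.1p2 and the build GRCm38. The sources used here do not say whether the counting used strand. The deposited gene table holds raw counts per run, and 36 other columns of per-sample values were not used. The authors' deposited comparison (edgeR 3.16.5) gives log2 fold changes and adjusted p-values, and its test and the handling of runs are known only as far as its columns show.

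The 2 runs of each lung were summed, and 92 spike-in entries of 47161 were left out. The test was edgeR 4.0.16's quasi-likelihood F test (R 4.3.3) after TMM scaling and filterByExpr at minimum count 10, with the genotype group as only factor, over 17843 genes with Benjamini-Hochberg adjustment. The SE is the log2 fold change over the square root of F. The 95% intervals use it with the fit's total degrees of freedom, prior plus residual. Lengths are merged exons of GENCODE M21. With 3 lungs per group the spread between lungs limits precision. The procedure was also run on simulated counts, drawn with the same dispersion for every gene. That setting differs from these data, so the run does not bear on the calls made here. Alternatives were RLE and total count scaling, no filter, DESeq2 1.42.0, limma-voom 3.58.1, a replicate block, each run alone, replicates 2 and 3 only, and leaving out each lung.

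Some genes counted among the members or lists are not reported here. Values in every lung are otherwise given for called members, the 6 highest per kilobase and the 4 uncalled members with the smallest p. Ccr2, Ccl12, Cx3cl1 and Ccr7 were added after their values were seen. The members and gene lists were chosen with earlier results of these data known.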

Additional observations from a re-analysis of the deposited data

How the results depend on the processing

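RLE and total count scaling changed no member's call or direction, and moved the median of all genes to -0.0033 and 0.0132 (log2). The first run alone called 2 members higher, and leaving out 1 lung called 0 to 8 higher and 0 to 3 lower. Over all genes, 1006 were called higher and 549 lower; with 1 lung left out these were 162 to 1713 and 90 to 1185. The count lower was 884 without the low-count filter, 1017 with DESeq2 and 1051 in replicates 2 and 3 only. Pathway genes called higher were 14 with DESeq2, 13 in replicates 2 and 3 only and 0 to 15 with 1 lung out, and those lower 0 to 2.

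Uncalled members changed sign as follows, in log2 fold change. In replicates 2 and 3 only, Ackr2 was 0.019, Ccl12 -0.00054 and Cxcr4 -0.0066. In the second run alone Ccl24 was -0.18, and in the first run alone Cx3cl1 was 0.073 and Cxcl13 -0.19. With 1 lung out, Ackr2 ranged from -0.35 to 0.079, Ccl24 from -0.16 to 0.49, Ccl28 from -0.51 to 0.024, Cx3cl1 from -0.057 to 0.012, Cxcl1 from -0.35 to 0.28, Cxcl13 from -0.078 to 0.33, Cxcr4 from -0.030 to 0.070 and Cxcr5 from -0.12 to 0.034. The causes were not tested.

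Ccl2 did not pass in the first run (adjusted p = 0.0885), the second run (0.0503) or replicates 2 and 3 only (0.0684), and Ccl7 did not in the first run (0.0541). Cxcl15 passed without the filter (0.00600), with DESeq2 (0.0451), limma-voom (0.0299), the first run (0.0129) and replicates 2 and 3 only (0.00287), and Ccr1 without the filter (0.0138), with DESeq2 (0.00262) and in replicates 2 and 3 only (0.00247). Cxcl16 (0.0455) and Ccl6 (0.0431) passed without CKO replicate 1, and Cxcl16 also in the second run alone (0.0376). Ccr2 passed in replicates 2 and 3 only (0.00737) and without CKO replicate 1 (0.00225). The replicate block called 4 members higher and 3 lower, Cxcl15 being added (log2 fold change -1.89, adjusted p = 0.0442). Residuals of same-numbered lungs correlated at 0.102, 0.0887 and 0.0365, and CKO replicate 3 correlated more with WT replicate 2 (0.0604). Since not every such correlation was over 0.1, the numbers were not taken to pair lungs. At these depths, 33 members had too few counts to test.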
